A study of Mus musculus and Rattus norvegicus with 12 samples.

Results

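The potassium channel genes were taken from both count tables as the rows whose symbol begins with Kcn followed by letters and a number, without antisense names ending in os or pseudogenes, and with a group mean of at least 0.5 CPM, the count of a gene scaled to library size, in either group of that system. In the heart, 50 of 54087 rows met the rule, and in the cultured cells 45 of 28909. The 50 heart members were 37 pore-forming subunits, 2 electrically silent subunits, 10 auxiliary subunits and Kcnq1ot1, an antisense noncoding RNA that is not a channel subunit. A further 47 rows with such a name stayed below the minimum, 8 of them at 0 in all 6 heart libraries. Kcnab3 (means of 0.255 and 0.528 CPM) and Kcnq5 (0.552 and 0.226 CPM) lay just inside it in flox and cKO hearts, and Kcng4 (0.485 and 0.115 CPM) and Kcnj10 (0.227 and 0.425 CPM) just outside. The systems had 37 members in common, 74% of the heart list and 82.2% of the cell list.

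RNA came from 12 libraries in 4 groups of 3. Heart apex was collected at day 14 after tamoxifen from mice with floxed Jmjd4 alleles, either Jmjd4f/f controls with no Cre in their label (flox) or MCM+ Jmjd4f/f mice with a myh6 Cre, driven by a cardiomyocyte promoter (cKO). Tamoxifen was given in both groups but Cre is labelled only in cKO, and what Cre does alone cannot be told apart from the loss of Jmjd4. Ventricular cardiomyocytes isolated from newborn Sprague-Dawley rats (NRVCs) received a control siRNA (siNC) or one against Jmjd4 (siJmjd4) for 48 h. The age of the mice, whether each heart library is 1 animal, and separate isolations of the NRVC replicates are not stated in the labels, so p-values measure only the spread between these samples, which may be technical.

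Potassium channels repolarise the cardiomyocyte. Transient outward current (Ito) carries the early repolarisation, delayed rectifiers carry the later repolarisation, and inward rectifiers such as IK1 hold the resting potential. Rodent ventricle relies mainly on Ito and on ultrarapid and slowly inactivating Kv currents. Acetylcholine-activated (IKACh), ATP-sensitive (IKATP), two-pore-domain (K2P) and calcium-activated channels tie the membrane to nerve input, metabolism and calcium. Most pores are built from 4 subunits, so related genes can share a channel, and auxiliary subunits set how many channels reach the membrane and how they gate.

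The libraries held 57174654 to 82187009 counts each. One control library stood apart in each system. Flox replicate 3 had 41.7% of its counts in mitochondrial genes, against 14.2% to 24.1% in the other heart libraries, and 1485 tested genes at 0. Its potassium channel genes lay lower than in its group (median log2 ratio -0.63, against -0.14 over all tested genes). Heart fold changes are also given without this library, while shares, ranks and counts of groups that do not overlap use all 6 libraries. Leaving it out tends to raise the flox level of these genes more than that of other genes, which favours lower calls among them. The share of all genes called in that fit is therefore not an independent measure for the members. In the rat, siNC replicate 3 had 461 tested genes at 0, against 78 to 137 in the others. Jmjd4, the targeted gene, stood at 19.0, 8.04 and 16.9 CPM in the flox hearts and at 8.95, 4.92 and 9.63 CPM in the cKO hearts. The groups overlapped (log2 fold change -0.90, SE 0.44, adjusted p = 0.397). The libraries labelled siJmjd4 held 3.58, 3.43 and 3.52 CPM of it and those with siNC 3.46, 4.40 and 0.982 CPM (log2 fold change 0.25, adjusted p = 0.770), so no lower transcript level was detectable there.

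In the hearts, 14 of the 15 potassium channel genes with a mean of at least 10 CPM over the 6 libraries had lower values with cKO. Of all genes at that level, 53.5% did. Kcnd2 and Kcnn1, counted among the 14, reached that level only through their flox values. Another 10, scarcer members had higher values in every cKO heart than in any flox heart, 20% of the 50 against 14.9% of all genes. For 13 members every cKO heart was the lower, 26% against 11.2%. With all 6 libraries only Kcnv2 passed the test (edgeR quasi-likelihood, Benjamini-Hochberg adjusted p under 0.05 over 18094 genes), and it fell. It was the only member among the 0.138% of all tested genes called lower, while 0.37% were called higher and no member was among those. Without flox replicate 3, 11 of the 50 passed. Kcnv2, Kcnj3, Kcnd2, Kcnj2, Kcnip2, Kcnn2, Kcnk3, Kcna5 and Kcnj11 fell, against 2.93% of all genes called lower, and Kcnj14 and Kcne4 rose, against 4.26% called higher. In all 11, flox replicate 3 was the flox library nearest to the cKO group, which bears on which genes pass without it. Leaving out any of the other 5 libraries instead, no member and no gene at all passed, and Kcnv2 kept its direction (-4.76 to -3.88) but not its call. With all 6 libraries and the Wald test of DESeq2, 12 members were called, 8 lower and 4 higher (4.37% and 5.29% of all genes). An offset for transcript length, fitted per library, gave 13, 9 lower and 4 higher (3.94% and 4.81%), and the fit without flox replicate 3 and cKO replicate 2 gave 18, 13 lower and 5 higher (9.53% and 9.54%).

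**Figure D1:**
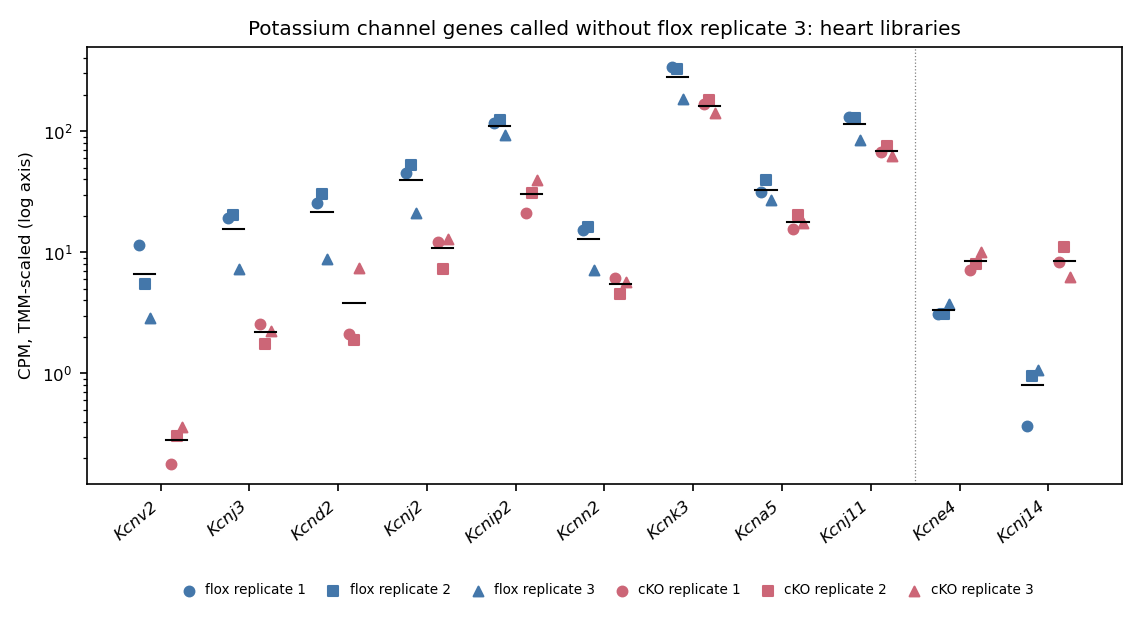
CPM (TMM-scaled, log axis) of the 11 potassium channel genes called in the heart without flox replicate 3, in each of the 6 libraries. Points are libraries, blue for flox and red for cKO with the shape giving the replicate number, and bars are group means over all 3. Left of the dotted line are the 9 genes called lower and right of it the 2 called higher. Flox replicate 3 (blue triangles) is the flox library closest to cKO in each.

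The members were also described by level, taken as the mean over all 6 libraries, a choice made after these data had been seen. Both groups count in that mean, but either can still carry a gene over a limit. Kcnd2 (means of 21.6 CPM in flox and 3.82 in cKO) and Kcnn1 (15.5 and 6.38) reached 10 CPM only through their flox values. In the 15 members at 10 CPM or more the median log2 fold change was -0.75, while 53.5% of the 8757 genes at that level had a lower value, with a median of -0.05. Without flox replicate 3, 13 of the 15 had a lower value (52.2% of all genes). Among the 17 members between 2 and 10 CPM, 6 had a lower value, against 45.1% of all genes, and 9 without flox replicate 3 (42.0%), where the median went from 0.14 to -0.05. Of the 18 below 2 CPM, 8 had a lower value (47.8% of all genes), and 9 without flox replicate 3 (48.2%). When libraries were scaled by their total counts alone, 9 of the 15 most abundant had a lower value against 19.8% of all genes, and on that scale the median of all genes itself was 0.54. The 9 genes called lower without flox replicate 3 kept lower values on it, from -4.17 for Kcnv2 to -0.28 for Kcnj11, while 10 members with smaller changes, among them Kcng2, Kcnh2, Kcnj12, Kcne1 and Kcnmb1, turned from lower to higher values. Over all 50 the median was -0.10 (0.00 over all genes), and -0.40 (0.02) without flox replicate 3. The CPM values of the groups did not overlap in 13 members with lower and 10 with higher values, 26% and 20%, against 11.2% and 14.9% of all genes. Kcnv2 among the 13, and Kcnn3 and Kcnn4 among the 10, were members only through the group where they were higher. In whole tissue, fewer cells of a type and less RNA per cell cannot be told apart.

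**Figure D2:**
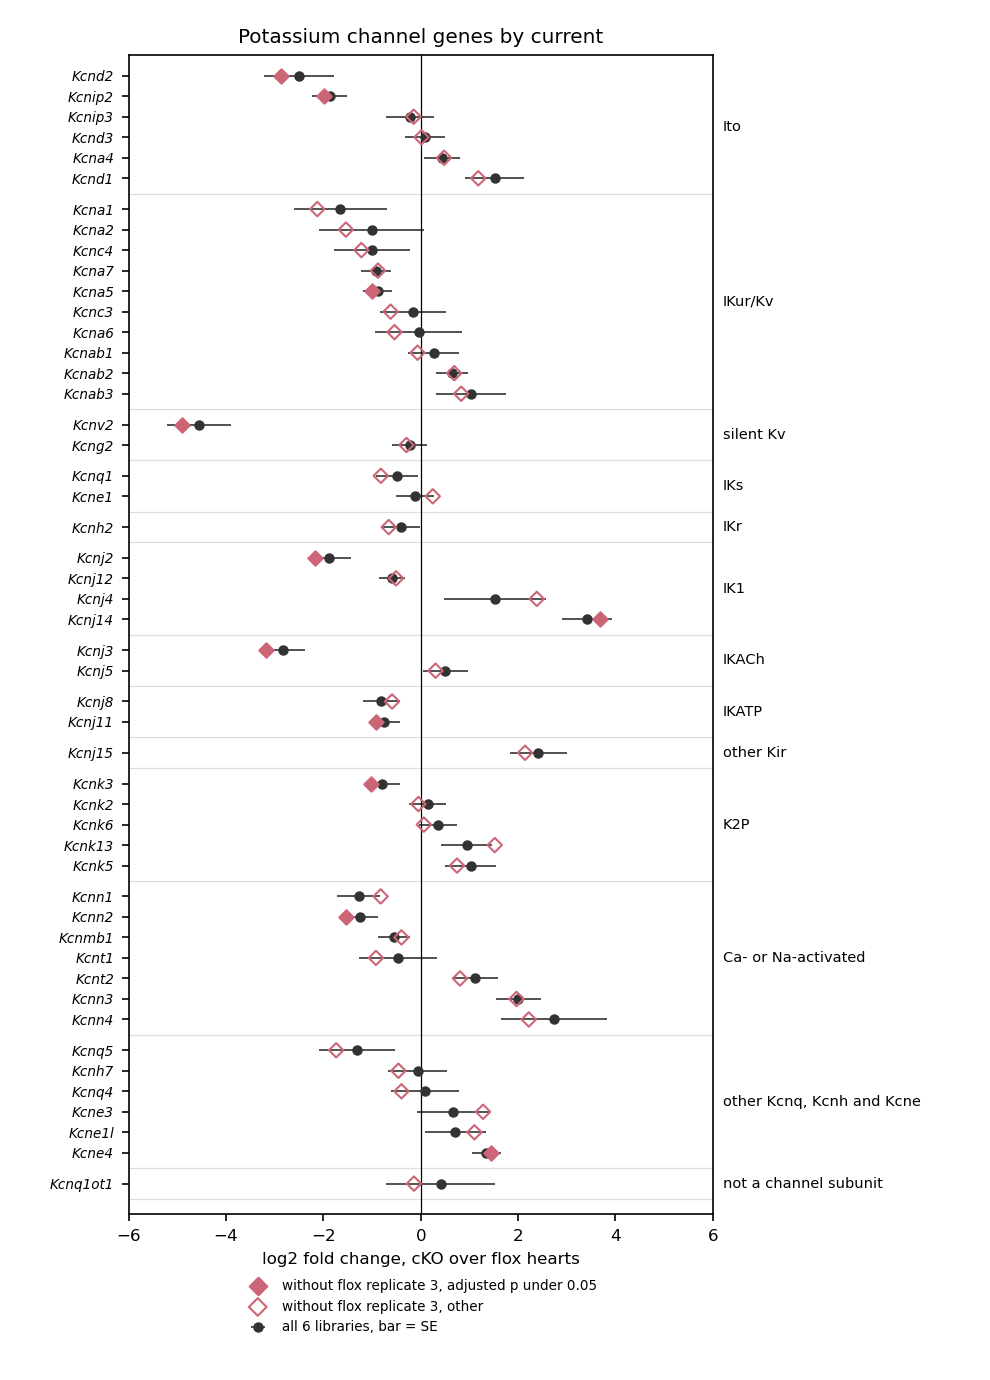
log2 fold change of 49 of the 50 heart members, cKO over flox, grouped by the current or family to which each gene belongs. Black points with bars are the fit to all 6 libraries with its SE, and diamonds the fit without flox replicate 3, filled where the adjusted p is under 0.05. Filled diamonds lie left of 0 in Ito, IKur and other Kv, silent Kv, IK1, IKACh, IKATP, K2P and calcium-activated groups, and right of 0 only for Kcnj14 and Kcne4.

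Among the genes of Ito, which has a fast and a slowly recovering component, the main pore gene and its main partner had lower values. Kcnd2, which encodes the Kv4 pore of the fast component, was at 25.7, 30.3 and 8.87 CPM in flox and at 2.098, 1.88 and 7.48 CPM in cKO. The groups did not overlap, but flox replicate 3 and cKO replicate 3 lay close together. Its log2 fold change came to -2.50 (SE 0.72, adjusted p = 0.175), and -2.88 (7.36-fold lower, adjusted p = 0.0344) without flox replicate 3. Kcnip2, the calcium-binding KChIP subunit that brings Kv4 channels to the membrane, was at 117, 123 and 93.2 CPM in flox and at 21.1, 30.7 and 39.2 CPM in cKO. All 3 cKO hearts were far below all 3 flox hearts, with a log2 fold change of -1.87 (SE 0.35, adjusted p = 0.0792), and -1.99 (3.97-fold lower, adjusted p = 0.0123) without flox replicate 3. The other 4 Ito members did not pass in either fit. Kcnd3, the second Kv4 pore of the ventricle, had overlapping groups (4.93 ± 0.844 CPM in flox and 5.24 ± 2.37 in cKO, SD, n = 3, log2 fold change 0.09, and 0.01 without flox replicate 3), and so had Kcna4, the pore of the slowly recovering component (2.00 ± 0.0988 and 2.70 ± 0.851 CPM, log2 fold change 0.43, and 0.48 without it). Kcnd1, the third Kv4 gene, stood at 0.598, 0.869 and 0.254 CPM in flox and at 1.77, 0.915 and 2.30 CPM in cKO (log2 fold change 1.52, SE 0.61, adjusted p = 0.316, and 1.18, adjusted p = 0.230, without flox replicate 3). The last, Kcnip3, had overlapping groups (log2 fold change -0.21, adjusted p = 0.898, or -0.15 when flox replicate 3 is left out).

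The Kcnd2 and Kcnip2 promoters are printed because these partners of one channel had lower values side by side. Kcnd2 lies on chromosome 6 (21215503 to 21729805, plus strand) and Kcnip2 on chromosome 19 (45791839 to 45816061, minus strand) of GRCm38. The 250 bases before each RefSeq start (GRCm38.p6), read 5′ to 3′ on the gene's strand, follow, and capitals mark GC boxes (GGGCGG or CCGCCC) and CCAAT boxes (CCAAT or ATTGG).
Kcnd2, chr6:21215096-21215345, plus strand: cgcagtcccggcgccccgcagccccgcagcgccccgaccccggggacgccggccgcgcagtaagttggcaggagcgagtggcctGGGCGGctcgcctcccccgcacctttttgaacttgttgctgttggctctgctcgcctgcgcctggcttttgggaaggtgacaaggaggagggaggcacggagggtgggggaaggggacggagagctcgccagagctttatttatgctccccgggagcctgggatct
Kcnip2, chr19:45816064-45816313, minus strand: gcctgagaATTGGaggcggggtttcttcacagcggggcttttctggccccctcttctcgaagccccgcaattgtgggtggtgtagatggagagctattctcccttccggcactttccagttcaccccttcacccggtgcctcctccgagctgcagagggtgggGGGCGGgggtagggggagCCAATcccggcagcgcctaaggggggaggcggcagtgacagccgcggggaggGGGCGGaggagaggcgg
Both stretches are rich in G and C (68.8% and 66.8%, against a median of 52.4% over all promoters in the table). Windows of other heart members lay on both sides of that median, such as 73.6% for Kcnh2 and 48.4% for Kcna7, which did not pass. A GC box stood in 32.7% of 32851 promoters of this length and a CCAAT box in 33.9%, and in 39.1% and 30.4% of the 46 promoters of the 34 heart members with an entry. The other motifs searched, each on both strands, were TATAAA (12.4% of all promoters, 0 of 46), the M-CAT motif CATTCC (12.6% and 10.9%) and the nuclear receptor half-site AAGGTCA (4.08% and 0 of 46).

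The 2 electrically silent subunits, which form no channel alone and modify other Kv channels, were apart in the hearts. Kcnv2 was at 11.4, 5.51 and 2.85 CPM in flox and at 0.178, 0.305 and 0.358 CPM in cKO. Every cKO heart lay below every flox heart, and the flox hearts themselves spread widely. Its log2 fold change came to -4.55 (SE 0.65, 23.5-fold lower, adjusted p = 0.0490), and -4.91 (adjusted p = 0.00524) without flox replicate 3. The gene lies on chromosome 19 (27322588 to 27337179, plus strand). Kcng2, whose group means were 109 ± 11.4 CPM in flox and 93.0 ± 31.0 CPM in cKO (SD, n = 3), had overlapping groups and a log2 fold change of -0.23 (adjusted p = 0.833), and -0.29 without flox replicate 3.

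In the remaining Kv families, Kcna5, the pore of the ultrarapid current IKur, was at 31.5, 39.9 and 27.1 CPM in flox and at 15.7, 20.4 and 17.4 CPM in cKO. The groups did not overlap. This was a log2 fold change of -0.88 (SE 0.30, adjusted p = 0.233), which without flox replicate 3 became -0.999 (2.00-fold lower, adjusted p = 0.0376). Over the 11 IKur and other Kv members, 8 had a lower value, 1 passed without flox replicate 3 and the median was -0.16, or -0.62 without that library. None of the 3 beta subunits (Kcnab1, Kcnab2, Kcnab3), cytoplasmic partners of Kv1 pores, passed in either fit, and with all 6 libraries all had a higher value, by 0.27 to 1.03 on the log2 scale, which for Kcnab1 was -0.07 without flox replicate 3.

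The genes of the slow and rapid delayed rectifiers did not pass in either fit. Kcnq1, the pore of IKs, was at 52.0, 52.5 and 20.5 CPM in flox and at 23.1, 31.6 and 34.0 CPM in cKO (log2 fold change -0.49, adjusted p = 0.670, and -0.82, adjusted p = 0.0719, without flox replicate 3). Flox replicates 1 and 2 were above all cKO hearts and replicate 3 was below them. Kcne1, the beta subunit of IKs, had 13.1 ± 5.08 CPM in flox and 12.05 ± 3.28 CPM in cKO (SD, n = 3, log2 fold change -0.12, and 0.25 without flox replicate 3). For Kcnh2, the pore of IKr, the means were 82.1 ± 27.8 and 62.0 ± 13.2 CPM (SD, n = 3, log2 fold change -0.41, adjusted p = 0.696, and -0.66, adjusted p = 0.163, without flox replicate 3). Kcne4, an inhibitory beta subunit of Kv1 and Kcnq1 channels, lay at 3.08, 3.09 and 3.75 CPM in flox and at 7.20, 8.04 and 10.0 CPM in cKO. Every cKO heart was above every flox heart, with a log2 fold change of 1.35 (SE 0.29, adjusted p = 0.101), and 1.45 (2.73-fold higher, adjusted p = 0.0212) without flox replicate 3.

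Inward rectifier genes moved in both directions. Kcnj2, the principal IK1 pore of ventricle, was at 45.1, 52.8 and 21.1 CPM in flox and at 12.1, 7.27 and 12.99 CPM in cKO, with no overlap. Its log2 fold change came to -1.88 (SE 0.45, adjusted p = 0.120), and -2.18 (4.53-fold lower, adjusted p = 0.0106) without flox replicate 3. Kcnj14, a scarce member of the same Kir2 family, was at 0.369, 0.960 and 1.07 CPM in flox and at 8.27, 11.1 and 6.21 CPM in cKO. The lowest cKO heart was well above the highest flox heart, with a log2 fold change of 3.42 (SE 0.51, 10.7-fold higher, adjusted p = 0.0508), just above the threshold, and 3.68 (adjusted p = 0.0127) without flox replicate 3. Kcnj12, the second ventricular Kir2 pore, was at 22.4 ± 2.34 CPM in flox and 14.8 ± 1.89 CPM in cKO (SD, n = 3) with no overlap and did not pass (log2 fold change -0.60, adjusted p = 0.361, and -0.51, adjusted p = 0.191, without flox replicate 3). The fourth, Kcnj4, had overlapping groups below 2 CPM (log2 fold change 1.52, SE 1.05, adjusted p = 0.568, and 2.38, adjusted p = 0.243, without flox replicate 3).

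The 2 pore genes of IKACh differed from each other. Kcnj3 (GIRK1) was at 19.4, 20.2 and 7.34 CPM in flox and at 2.56, 1.74 and 2.26 CPM in cKO. No cKO heart reached a flox heart, with a log2 fold change of -2.84 (SE 0.47, adjusted p = 0.0609), and -3.17 (9.01-fold lower, adjusted p = 0.00314) without flox replicate 3. Kcnj5 (GIRK4), with which it shares channels, was at 79.7, 97.0 and 52.4 CPM in flox and at 135, 136 and 54.0 CPM in cKO. Its groups overlapped because cKO replicate 3 lay with the flox hearts (log2 fold change 0.51, SE 0.46, adjusted p = 0.687, or 0.30 when flox replicate 3 is left out). The exons of Kcnj3 overlap those of Gm26794, a noncoding RNA on the other strand, over 1621 of 5215 bases, and Gm26794 also had lower values (3.36 to 11.2 CPM in flox, 0.567 to 1.498 in cKO). No source used here says whether counting used strand, so reads of the pair cannot be told apart. Chrm2, the muscarinic receptor that opens IKACh, was among 4 partner genes called lower without flox replicate 3 (log2 fold change -1.80, adjusted p = 0.0101). IKACh is strongest in atrium. The summed level of 4 atrial markers (Nppa, Myl7, Myl4 and Sln) was 95.0 to 184 CPM in flox and 6044 to 16539 CPM in cKO, nearly all of it Nppa, which stressed ventricle also makes. All 3 tested were called higher without flox replicate 3, Nppa, Myl7 (means of 1.83 CPM in flox and 10.6 CPM in cKO, log2 fold change 4.17, adjusted p = 0.0173) and Myl4 (2.32 and 27.0 CPM, log2 fold change 4.28, adjusted p = 0.0180). With all 6 libraries Nppa was called too (log2 fold change 6.29, adjusted p = 0.0333), and Myl7 and Myl4 were not. Sln was at 0 in 5 of the 6 hearts, and the part of atrial cells in the result was not tested.

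Kcnj2 lies on chromosome 11 (111066164 to 111076821, plus strand) and Kcnj3 on chromosome 2 (55435970 to 55598145, plus strand) of GRCm38. Their promoters are shown in the same way, as the pore genes of IK1 and IKACh that fell without flox replicate 3.
Kcnj2, chr11:111065914-111066163, plus strand: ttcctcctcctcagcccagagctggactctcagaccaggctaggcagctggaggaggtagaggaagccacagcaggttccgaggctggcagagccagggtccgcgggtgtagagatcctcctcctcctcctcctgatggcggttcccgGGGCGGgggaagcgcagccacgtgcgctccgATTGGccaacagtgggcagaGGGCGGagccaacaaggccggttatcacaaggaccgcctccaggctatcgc
Kcnj3, chr2:55435720-55435969, plus strand: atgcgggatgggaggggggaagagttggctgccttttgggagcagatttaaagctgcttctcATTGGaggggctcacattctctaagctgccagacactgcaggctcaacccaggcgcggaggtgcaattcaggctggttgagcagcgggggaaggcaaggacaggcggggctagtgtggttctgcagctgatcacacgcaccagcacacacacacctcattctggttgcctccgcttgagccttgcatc
Their G and C content was 65.6% and 58.4%. The Kcnj3 window held a CCAAT box and no GC box.

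Both IKATP pore genes had lower values. Kcnj11, the pore of the cardiomyocyte membrane channel, was at 132, 129 and 83.9 CPM in flox and at 66.9, 75.7 and 62.9 CPM in cKO, with no overlap (log2 fold change -0.75, SE 0.32, adjusted p = 0.342, and -0.93, adjusted p = 0.0380, without flox replicate 3). Kcnj8, the pore of vascular IKATP and a marker of pericytes, had overlapping groups, 56.8 ± 14.3 CPM in flox and 32.4 ± 12.2 CPM in cKO (SD, n = 3, log2 fold change -0.81, adjusted p = 0.381, or -0.59 when flox replicate 3 is left out). The 7-gene pericyte marker list, which holds Kcnj8 itself and its channel partner Abcc9 and so is not independent of it, summed to 629 to 1564 CPM in flox and 831 to 1084 CPM in cKO, with overlap. Kcnj15, a Kir4 family gene known from kidney and other epithelia, was at 1.69, 1.67 and 0.791 CPM in flox and at 5.71, 3.60 and 13.1 CPM in cKO. The groups did not overlap, with a log2 fold change of 2.42 (SE 0.59, adjusted p = 0.126), and 2.14 (adjusted p = 0.0683) without flox replicate 3.

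Of the 5 K2P members, which carry background potassium current, 1 passed. Kcnk3 (TASK-1), the most abundant potassium channel gene of the list per kilobase, was at 339.9, 324 and 183 CPM in flox and at 169, 179 and 141 CPM in cKO. The groups were apart only narrowly, because flox replicate 3 lay just above cKO replicate 2. Its log2 fold change came to -0.79 (SE 0.38, adjusted p = 0.385), and -1.02 (2.03-fold lower, adjusted p = 0.0376) without flox replicate 3. Kcnk2 (TREK-1), a stretch-sensitive channel, had overlapping groups at 2.08 ± 0.580 and 2.31 ± 0.372 CPM (SD, n = 3, log2 fold change 0.14, and -0.05 without flox replicate 3). The other 3 had higher values and did not pass, with log2 fold changes of 0.36 to 1.03, and of 0.064 to 1.52 without it.

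Calcium-activated small-conductance (SK) channel genes had values in both directions. Kcnn2 (SK2) was at 15.4, 16.3 and 7.20 CPM in flox and at 6.16, 4.49 and 5.63 CPM in cKO, with no overlap. It had a log2 fold change of -1.26 (SE 0.39, adjusted p = 0.199), which without flox replicate 3 became -1.54 (2.91-fold lower, adjusted p = 0.0132). Kcnn1 (SK1) was at 14.1, 8.46 and 23.8 CPM in flox and at 4.82, 7.15 and 7.19 CPM in cKO. These groups did not overlap either, but flox replicate 3 was the highest here and the gene did not pass (log2 fold change -1.28, adjusted p = 0.243, and -0.82, adjusted p = 0.159, without it). Kcnn3 (SK3) was at 0.458, 0.545 and 0.452 CPM in flox and at 2.69, 1.84 and 1.33 CPM in cKO, so every cKO heart was above the flox hearts. Its log2 fold change came to 2.00 (SE 0.46, adjusted p = 0.109), and 1.97 (adjusted p = 0.0539) without flox replicate 3. Kcnn4, the intermediate-conductance channel of blood and immune cells and fibroblasts, was at 0.433, 0.130 and 0 CPM in flox and at 0.818, 1.86 and 1.27 CPM in cKO. The cKO hearts were again the higher, and a count of 0 in flox replicate 3 allows up to 0.0847 CPM. It did not pass (log2 fold change 2.74, SE 1.09, adjusted p = 0.311), and that value depends on how the count of 0 is handled. The summed level of 7 macrophage markers was also higher (336 to 552 CPM in flox, 613 to 871 in cKO), mostly Lyz2 (means of 264 and 464 CPM). Of them 5 had higher values, and Cd163 (23.8 and 17.4 CPM) and Cx3cr1 (7.87 and 4.53 CPM) lower ones. The 8 fibroblast markers summed to 865 to 911 and 2186 to 5471 CPM, 7 with higher values and Dpt with a lower one. No marker of either list was called with all 6 libraries, and 3 of each were called higher without flox replicate 3. Their part in the Kcnn4 result was not tested. Kcnmb1, the beta subunit of the large-conductance BK channel in smooth muscle, had a mean of 3.56 ± 0.627 CPM in flox and 2.44 ± 0.261 CPM in cKO (SD, n = 3, log2 fold change -0.55, adjusted p = 0.499, or -0.40 when flox replicate 3 is left out). The 6 smooth muscle markers summed to 1864 to 2140 CPM in flox and 3564 to 6056 CPM in cKO, mostly Des (means of 1571 and 4479 CPM), which cardiomyocytes also make. Apart from Des, Cnn1 (1.57 and 14.6 CPM) and Tagln (25.8 and 46.8 CPM) had higher means in cKO, Acta2 was at 322 and 131 CPM, and Myh11 (27.4 and 29.4 CPM) and Mylk (24.2 and 22.4 CPM) were close. Of the 6 smooth muscle markers only Cnn1 was called with all 6 libraries (log2 fold change 3.22, adjusted p = 0.0387). The part of these markers in the Kcnmb1 value was not tested.

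Within 4 families the make-up of the transcripts was compared as shares of CPM per kilobase of exon. That scale takes gene length into account but not a length effect that differs between libraries. With the per-library length offset the log2 fold change of Kcnd3 went from 0.09 to -0.52, and the shares carry no such offset. The families were picked after their members' values had been seen. Kcnj14 took 0.865%, 1.98% and 2.94% of the IK1 family in flox and 27.1%, 36.5% and 23.1% in cKO, while Kcnj2 took 52.0%, 53.7% and 28.5% and then 19.5%, 11.8% and 23.8%. The shares of Kcnj12 overlapped (52.4% ± 12.4 and 49.2% ± 3.24, SD, n = 3). The summed level of the family was 13.6 to 18.04 CPM per kb in flox and 10.0 to 11.4 in cKO. Kcnj3 made up 15.0% ± 3.44 of the IKACh pair in flox and 2.14% ± 1.31 in cKO (SD, n = 3). Kcnd2 made up 82.4% ± 7.92 of the Kv4 transcripts in flox and 39.4% ± 10.4 in cKO (SD, n = 3), where Kcnd3 was at 41.5% ± 5.97 and Kcnd1 at 19.2% ± 4.54. The Kv4 sum was 2.35 to 6.83 CPM per kb in flox and 0.937 to 2.90 in cKO, with overlap. Kcnn3 made up 2.41% ± 0.457 of the SK family in flox and 19.1% ± 6.27 in cKO (SD, n = 3), while the shares of Kcnn1 and Kcnn2 overlapped. Of the 12 shares tested with an exact two-sided permutation test, those of Kcnj2, Kcnj14, Kcnj3, Kcnj5, Kcnn3 and the 3 Kv4 genes had p = 0.1, the smallest that 3 against 3 libraries allow, so none could pass.

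**Figure D3:**
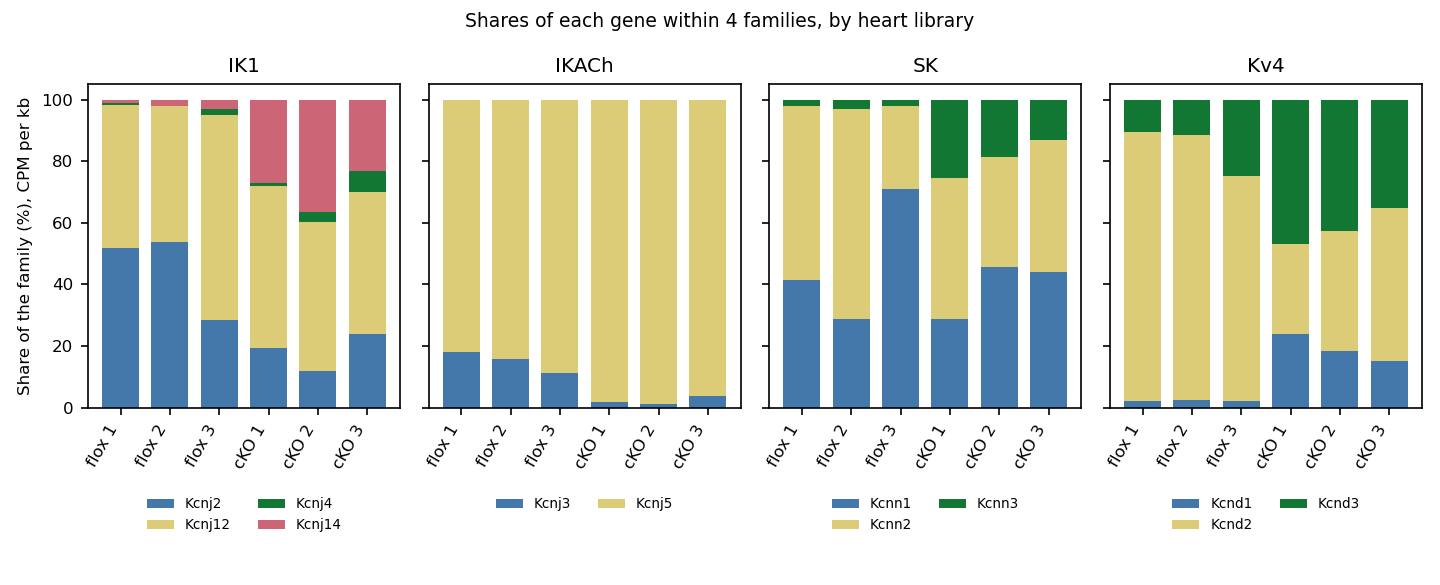
Share of each gene in the summed CPM per kilobase of its family (%), in each of the 6 heart libraries, for IK1, IKACh, SK and Kv4 genes. Each bar is 1 library and sums to 100. Kcnj14 takes 23.1% to 36.5% of IK1 transcripts in cKO against at most 2.94% in flox, and Kcnd2 takes 73.3% to 87.6% of Kv4 transcripts in flox against 29.2% to 50.0% in cKO.

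On the same scale per kilobase, the order of levels in flox hearts was led by Kcnk3 (74.1 ± 22.6 CPM per kb), Kcnip2 (44.6 ± 6.37), Kcng2 (38.7 ± 4.06) and Kcnj11 (36.6 ± 8.58, each SD, n = 3). The ranges of mean ± SD of Kcnip2, Kcng2 and Kcnj11 overlapped. So did those of Kcnj8 (22.3 ± 5.62), Kcnh2 (17.7 ± 5.98), Kcnj5 (16.3 ± 4.80) and Kcnq1 (13.8 ± 6.06, each SD, n = 3) that followed. Differences between genes within the same library were not tested. In cKO, Kcnk3 stayed first (42.8 ± 5.19 CPM per kb) and Kcng2 came second (33.1 ± 11.0). Kcnip2 went from rank 2 to rank 7 of 50, Kcnd2 from 12 to 24, Kcnj3 from 17 to 34 and Kcnv2 from 20 to 48. Kcnj14 went from rank 32 to 13 and Kcne4 from 21 to 14.

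Genes that belong to potassium current complexes or their control without being Kcn genes were listed apart, 34 in all, of which 30 were tested. None was called with all 6 libraries and 18 had a lower value, against 50.0% of all genes (median log2 fold change -0.25, against 0.00 over all genes). Leaving out flox replicate 3 gave a median of -0.38 and 4 calls, all lower, where 2.93% of all genes were called lower and 4.26% higher. Besides Chrm2 these were Fhl2, a LIM protein that anchors channel subunits (-1.32, adjusted p = 0.0495), Klf15, a transcription factor known to control Kcnip2 (-1.09, adjusted p = 0.0339), and Hcn4, the pacemaker channel (-1.83, adjusted p = 0.0250). Klf15 was at 51.6 ± 14.3 CPM in flox and 20.6 ± 3.46 CPM in cKO (SD, n = 3). The 8 cardiomyocyte markers, which bear on every gene with its main source in these cells, summed to 42661 to 62399 CPM in flox and 33866 to 35494 CPM in cKO. With all 6 libraries 7 had a lower value and Myh7 a higher one (means of 349.1 and 5386.5 CPM). Their median log2 fold change was -0.85, and -0.42 without flox replicate 3. In that fit Tnnt2 (0.14), Actc1 (0.01) and Myl2 (0.09) had higher values too. The part of these markers in the lower values was not tested.

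In NRVCs no potassium channel gene was called. None of 45 members passed with all 6 libraries in edgeR's quasi-likelihood test, where 1 of 15497 genes was called higher (0.00645%) and 0 lower (0%). Unadjusted p was under 0.05 for 2 members, Kcnd3 and Kcnab1, and for 8.71% of all genes. DESeq2's Wald test called 0 members (0.878% of all genes higher and 0.206% lower), the fit without siNC replicate 3 also 0 (0.487% and 0.0823%), and the fit without siNC replicate 3 and siJmjd4 replicate 1 called 4 (10.6% and 5.18%), of which Kcnd3 and Kcne4 were higher and Kcng2 and Kcnh2 lower. The CPM values did not overlap in 4 members with higher and 5 with lower values, 8.89% and 11.1%, against 22.4% and 17.8% of all genes. The median log2 fold change was -0.24 (0.01 over all genes), and -0.088 without siNC replicate 3. All 7 K2P members had a lower value (49.7% of all genes did), from -1.72 for Kcnk12 to -0.22 for Kcnk2. The Kcnk12 value rested on siNC replicate 3, at 1.96 CPM against 0.519 and 0.309 CPM in the other siNC libraries. Without it Kcnk12 was at -0.56, Kcnk3 went from -0.56 to -0.25 and Kcnk2 to 0.00.

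Kcnd3 was at 38.2, 32.0 and 30.9 CPM with siNC and at 39.6, 47.8 and 51.6 CPM with siJmjd4. The groups were apart by a narrow margin, with a log2 fold change of 0.46 (SE 0.17, adjusted p = 0.379). Kcne4 was at 7.78, 9.56 and 2.21 CPM with siNC and at 10.7, 13.5 and 12.6 CPM with siJmjd4, without overlap (log2 fold change 0.91, SE 0.51, adjusted p = 0.379, and 0.50 without siNC replicate 3). Kcne2, a beta subunit of Kcnh2 channels that was nearly absent from the hearts, was at 1.36, 1.10 and 0.774 CPM with siNC and at 0.624, 0.669 and 0.502 CPM with siJmjd4 (log2 fold change -0.84, adjusted p = 0.379). Several genes measured in the hearts were scarce in the culture. Kcnip2 was at 0.0463 CPM or less in every NRVC library, and Kcna5 and Kcne1 also stayed below the minimum. So did Kcnj4 and Kcnma1, the BK pore, both scarce in the flox hearts too (means of 0.29 and 0.0979 CPM). Kcnd2 was not analysed here in the rat. Fibroblast markers summed to 31515 to 37333 CPM in the culture and cardiomyocyte markers to 14936 to 26332 CPM, so the libraries labelled cardiomyocytes held transcripts of both.

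Whether the responses of heart and NRVCs differed was tested in 1 model of all 12 libraries over 13482 shared genes, of which 1.68% were called. That model held 1 spread per gene for both species, although separate fits gave larger SEs in the hearts (Kcnv2 0.65 against 0.29, Kcnj14 0.51 against 0.22). Its p-values for such genes may therefore be too small. In the hearts alone, edgeR's adjusted p was 0.0490 for Kcnv2 and 0.0508 for Kcnj14. Among the 37 shared members, 2 were called. For Kcnv2 the difference of log2 fold changes, heart minus NRVC, was -5.01 (SE 0.72, adjusted p = 0.00657). In NRVCs Kcnv2 was at 5.39, 4.79 and 2.83 CPM with siNC and at 5.35, 6.06 and 6.26 CPM with siJmjd4, with overlap. For Kcnj14 the difference was 3.77 (SE 0.56, adjusted p = 0.00766), and in NRVCs it was at 5.27, 5.00 and 6.89 CPM with siNC and at 4.52, 4.73 and 4.35 CPM with siJmjd4. Those groups did not overlap, like those of 17.8% of all NRVC genes with lower values, and the change there did not pass (log2 fold change -0.34, adjusted p = 0.402, or -0.18 with an adjusted p of 0.591 when siNC replicate 3 is left out). Next were Kcnj3 (-4.83, adjusted p = 0.0555), which was at or below 1.02 CPM in NRVCs, Kcnj2 (-3.00, adjusted p = 0.0899) and Kcnd1 (2.13, adjusted p = 0.133). Without flox replicate 3 and siNC replicate 3, 5 members were called, Kcnv2, Kcnj14, Kcnj3, Kcnj2 and Kcnq5, where 12.8% of 13647 genes were. Species, age, culture and the means of targeting Jmjd4 all differ between the systems and cannot be told apart. Jmjd4 itself was not called lower in either system.

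**Figure D4:**
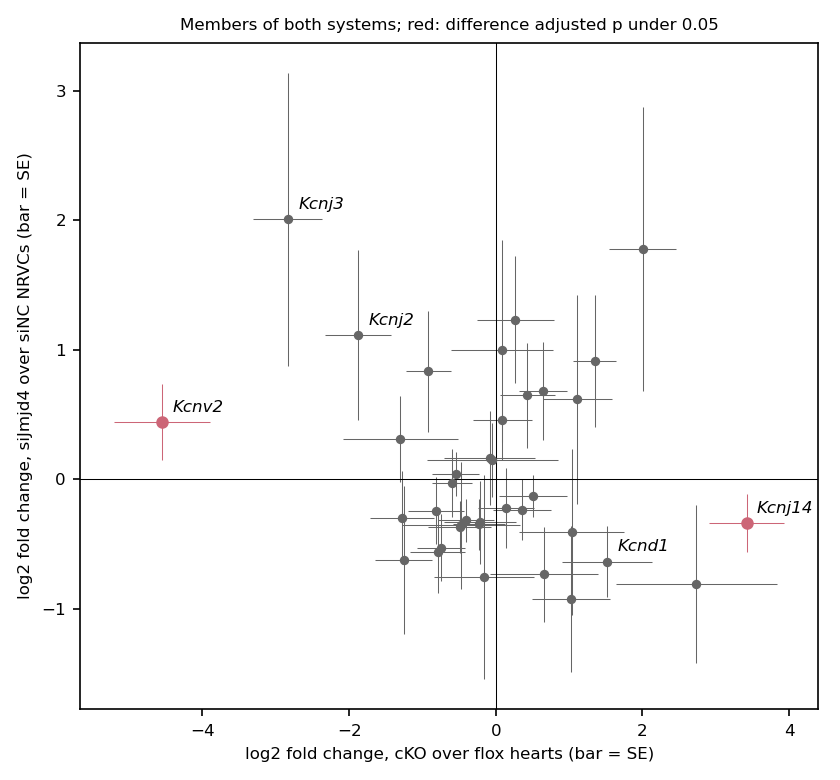
log2 fold change in the heart (x axis, cKO over flox) against that in NRVCs (y axis, siJmjd4 over siNC) for the 37 potassium channel genes measured in both, with bars for the SE. The 5 genes with the smallest p for the difference are named, and Kcnv2 and Kcnj14, in red, are the 2 whose difference passed the test.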

How the data were processed

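The authors deposited 1 table per system of counts, whole numbers per gene symbol that were not normalized. Per the submitters' processing notes, which state no role, edgeR 3.20.9, StringTie 1.3.4 and HISAT2 2.1.0 were used, with the builds mm10 and rn6. Total RNA was extracted with TRIzol, per the labels' protocols, and no source used here states the counting rules or strand. Total counts ran from 57174654 to 82187009 per library.

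Groups came from the labels alone. Each system was fitted apart on its 6 libraries with edgeR 4.0.16 in R 4.3.3 (filterByExpr, TMM scaling, robust quasi-likelihood F test, two-sided, group as the only term, Benjamini-Hochberg over all genes tested). CPM values use TMM-scaled library sizes. Standard errors are from the F statistic. A floor of 3 counts covers counting error only. Exon lengths, positions and overlaps are from GENCODE M21 on GRCm38, and all 50 heart members had a length. Rat genes were matched by symbol, case ignored. Alternatives were DESeq2 1.42.0 (Wald test, and its size factors), total counts, other filters, a replicate block, a transcript length offset (lowess span 0.3), limma 3.58.1 voom with sample weights, and left-out libraries. Scripts were tested on simulated data with 200 genes changed.

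The members, the currents and the lists were chosen with earlier results of these data known. Named genes are the members called with or without flox or siNC replicate 3, the 5 highest and 5 lowest fold changes, the main cardiac subunits of each current, and the 5 smallest p for the difference between systems, and the text gives a selection of them. The values of 1 member are not reported here, and it stays in the counts and medians. Counts of replicate pairs differed far beyond sampling noise (chi-square over degrees of freedom of 26.1 to 1581), and all 12 libraries were kept.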

Additional observations from a re-analysis of the deposited data

Results flagged for a closer look

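The response of Kcnv2 differed between the systems, with a log2 difference (heart minus NRVC) of -5.01 in the test of the difference itself. That test used 1 spread per gene for both species. All 3 cKO hearts lay below all 3 flox hearts, while the NRVC groups overlapped. The response of Kcnj14 differed in the other direction, by 3.77, with all 3 cKO hearts above the flox hearts, while in NRVCs the change did not pass (log2 fold change -0.34, adjusted p = 0.402, and -0.18 without siNC replicate 3). Jmjd4 itself was not detectably lower in the libraries labelled siJmjd4.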

How the results depend on the processing

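With all 6 libraries 1 heart member was called. DESeq2's Wald test gave 12, the transcript length offset 13, voom weights 25 and the fit without flox replicate 3 and cKO replicate 2 gave 18. No filter gave 2, total counts alone 0 and a mean of at least 5 CPM, under which Kcnv2 was not tested, 0. With 1 library left out it was 0 to 11, the 11 without flox replicate 3. Over all genes 92 were called, and 1748, 1267, 3851 and 3585 under the first 4 of these, 146 with no filter, 20 with total counts and 0 to 1373 with 1 library left out. The heart median of -0.10 became -0.39 with voom and with those 2 libraries out, -0.58 at 5 CPM and 0.31 with total counts, and lay from -0.40 to 0.21 with 1 library left out. In NRVCs 4 members were called without siNC replicate 3 and siJmjd4 replicate 1, and 1 with voom. All genes called there went from 1 to 2470 and 1148 under these, to 168 with DESeq2, to 0 with the length offset, and to 0 to 90 with 1 library left out. The NRVC median of -0.24 became -0.15 with total counts, -0.35 with the length offset and -0.14 with voom, and lay from -0.31 to -0.088 with 1 left out. Without flox replicate 3 and siNC replicate 3 the difference between systems was called for 5 members.

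The log2 fold change of these named members, none of them called by edgeR with all 6 libraries, changed sign. With total counts it became 0.60 for Kcne1, 0.0183 for Kcnh2, 0.0086 for Kcnj12 and 0.0932 for Kcnmb1 in the heart, and 0.0376 for Kcnj12 in NRVCs. With the length offset it became -0.52 for Kcnd3 and -0.0586 for Kcnk2 in the heart, and -0.20 for Kcnd3, 0.0362 for Kcnj12 and -0.14 for Kcnmb1 in NRVCs. With voom it became 0.11 for Kcne1 and -0.13 for Kcnk2 in the heart, and 0.18 for Kcnk2 in NRVCs. With 2 libraries out it became 0.11 for Kcne1 and -0.19 for Kcnk2 in the heart, and 0.0206 for Kcnk2 in NRVCs. With 1 library left out the ranges in the heart were -0.29 to 0.37 for Kcnd3, -0.29 to 0.25 for Kcne1 and -0.0491 to 0.35 for Kcnk2. In NRVCs they were -0.20 to 0.14 for Kcnj12 and -0.44 to 0.0037 for Kcnk2. The cause was not tested. The labels state no pairing by replicate number. Correlations of same-numbered deviations were 0.51, -0.63 and -0.39 in the heart, and -0.27, 0.00 and -0.27 in NRVCs. Differently numbered heart pairs ran from -0.63 to 0.67, so these values cannot decide whether samples were paired. With the replicate block 0 heart members and 0 genes were called, and 0 genes in NRVCs. Members below 2 CPM rest on few counts, and their changes are the least precise.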
